A study of Oryctolagus cuniculus with 9 samples.

Results

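The 10 genes described here are the core parts and direct partners of the circadian clock, found in the table by their gene symbols: ARNTL, CLOCK, NPAS2, PER1, PER2, PER3, CRY1, CRY2, NR1D1 and NFIL3. All 10 were present among the 29076 genes of the table, and 9 of them reached the mean level required for testing, as 12981 genes of the table did. PER3 did not. The data are RNA-seq of the diaphragm, the main muscle of breathing, from New Zealand white rabbits, with 3 libraries in each of 3 groups. Animals of the CON group were anaesthetized and breathed on their own. Animals of the MV group were under volume assist-control mechanical ventilation for 48 h with a positive end-expiratory pressure (PEEP) of 0. The study reports light sedation without muscle relaxants, and spontaneous breaths that were kept in this mode. Animals of the MV_PEEP group were ventilated with a PEEP whose label gives a level of 8 without a unit, and with no stated duration. Pentobarbital anaesthesia and dexmedetomidine sedation were described for the study's animals, and tube feeding for those ventilated for 48 h. No hour of tissue collection is given in the sources used here. The labels do not say whether the libraries of a group came from separate animals, and each p-value therefore rests on the spread among the libraries alone, which may be technical.

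The circadian clock is a transcriptional feedback loop that runs in nearly every cell, skeletal muscle included. ARNTL (also called BMAL1) pairs with CLOCK or NPAS2 to switch on the PER and CRY genes, whose proteins return to the nucleus and repress that pair. An auxiliary loop, in which NR1D1 represses and the ROR receptors activate ARNTL, and an output branch, in which NFIL3 competes with DBP, TEF and HLF at D-box elements, are tied to it.

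Total counts per library ranged from 21646702 to 43697018, and the biological coefficient of variation common to all genes was 0.552. Skeletal muscle markers (ACTA1, CKM, TNNT3, MB and DES of the list were present by name) had a summed level of 52868 to 63510 FPKM (fragments per kilobase of transcript, scaled to the mapped fragments of the library) in CON, 27415 to 40013 FPKM in MV and 20258 to 38835 FPKM in MV_PEEP. ACTA1 made up most of this sum, and DES, the muscle intermediate filament, stood the other way, at a mean of 1747 FPKM in CON and 2946 FPKM in the ventilated libraries. Libraries that stood apart were found in both ventilated groups. MV replicate 1 had a summed level of neutrophil markers of 1067 FPKM, while CON reached at most 19.1 FPKM. MPO, a gene of that list, was at 0 in all libraries. MV_PEEP replicate 3 had summed levels of 7774 FPKM for adipocyte markers, 3732 FPKM for fibroblast markers and 24.0 FPKM for mesothelial markers, while no other library exceeded 713, 1521 and 0.868 FPKM. Values without these libraries are given beside some of the results that they changed. A result given without such a value may also depend on them. In bulk tissue, fewer cells of a type and less RNA per cell cannot be told apart.

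Compared to those in the CON group, 3 of the clock genes stood higher in all 6 ventilated libraries on the FPKM scale: ARNTL, the activator of the loop, NFIL3, the repressor of the D-box branch, and CRY1, a repressor of the main loop. By edgeR's fit the differences of the ventilated libraries from CON were 5.71-fold, 5.93-fold and 1.85-fold. CLOCK, PER1, CRY2 and NR1D1 had differences smaller than their spread, while PER2 and NPAS2 were the members that varied most between libraries. No member passed an adjusted p of 0.05, in a table where 0% of genes did so in each of the 4 comparisons (MV against CON, MV_PEEP against CON, MV_PEEP against MV, and the mean of both ventilated groups against CON). The smallest adjusted p of any gene was 0.287, 0.214, 0.985 and 0.131 in these comparisons by edgeR's quasi-likelihood test. By an unadjusted p under 0.05, ventilation was accompanied by 3 of 9 members above CON and 0 below, where 3.6% of all genes were higher and 3.84% lower. With MV replicate 1 and MV_PEEP replicate 3 left out, ARNTL, NFIL3 and CRY1 were higher and PER2 lower by the same measure, as were 648 and 839 of all genes. On the FPKM scale, 3 of 9 members had all ventilated libraries above CON and 0 had all below, where 5.99% and 1.25% of all genes did. On the scale of CPM (counts scaled to a common library size, here with the trimmed mean of M-values, TMM), these numbers were 2 and 0 of 9, where 2.53% and 2.63% of all genes did. The median log2 fold change of the 9 members was 0.32, and that of all genes tested was 0.04.

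**Figure D1:**
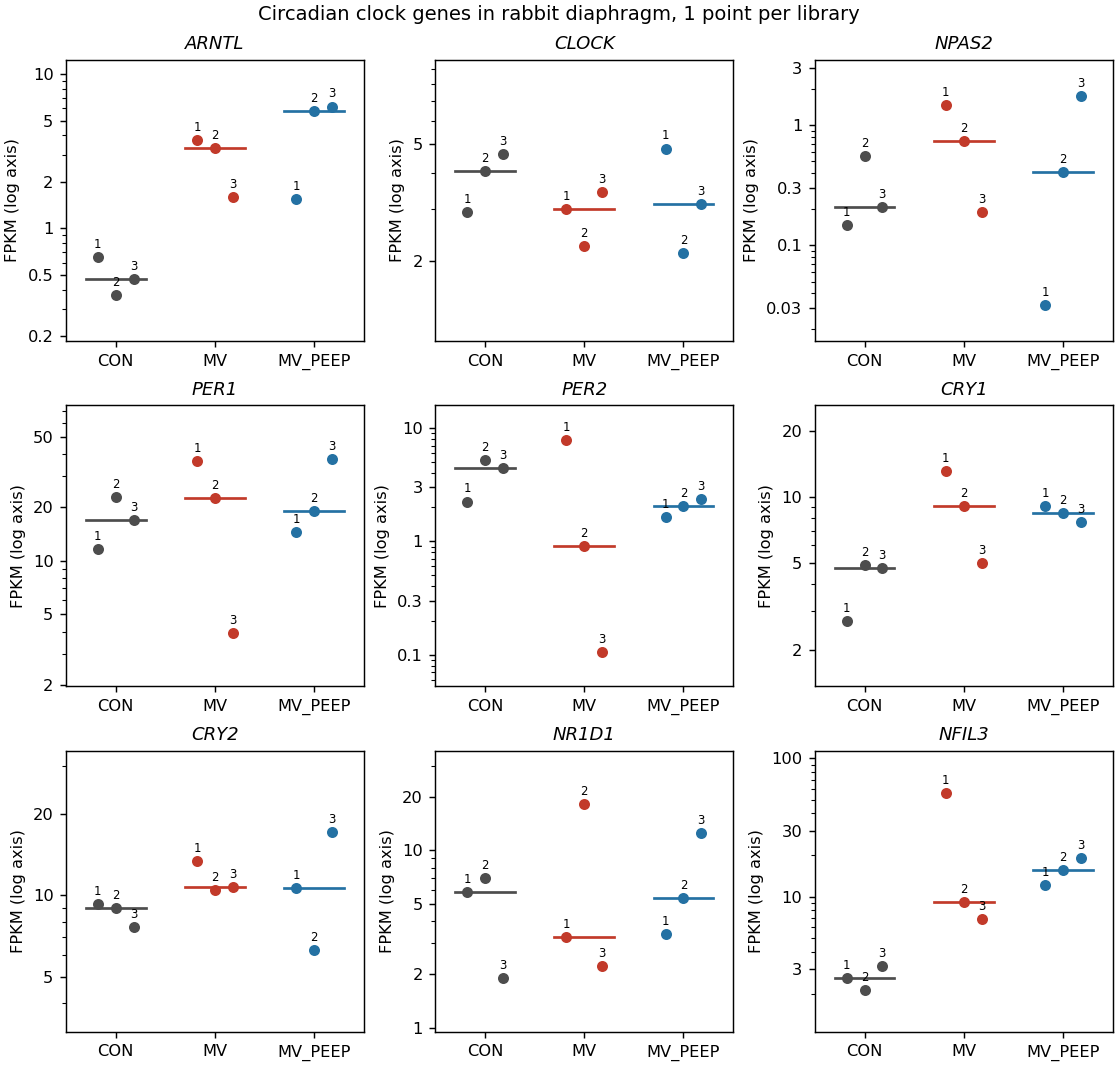
FPKM (log axis) of each of the 9 tested clock genes, with 1 point for each of the 9 libraries, numbered by replicate, and a line at the group median. For ARNTL the 3 CON points lie between 0.372 and 0.653 FPKM and the 6 ventilated points between 1.56 and 6.16 FPKM, whereas PER2 in MV extends from 0.105 to 7.89 FPKM.

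ARNTL encodes the transcription factor without which the clock stops in mice (chromosome 1, 155097314 to 155171188, plus strand, OryCun 2.0, a gene model marked as low quality in RefSeq). Its levels were 0.653, 0.372 and 0.468 FPKM in CON, 3.71, 3.30 and 1.59 FPKM in MV, and 1.56, 5.75 and 6.16 FPKM in MV_PEEP. Every ventilated library was above every CON library, and the lowest ventilated libraries, MV replicate 3 and MV_PEEP replicate 1, were still more than double the highest CON library. The counts behind these levels were 59, 27 and 29 in CON and 163 to 722 in the ventilated libraries, so that the CON level rests on few reads. On the TMM-scaled CPM scale the order of groups was the same, with 0.99 to 2.36 CPM in CON and 4.70 to 15.2 CPM in the ventilated libraries. The mean was 0.498 ± 0.143 FPKM in CON, 2.87 ± 1.12 FPKM in MV and 4.49 ± 2.55 FPKM in MV_PEEP (SD, n = 3 each).

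The log2 fold change of ARNTL was 2.32 ± 0.54 (SE) in MV against CON, with an unadjusted p of 0.00161 and an adjusted p of 0.322 by edgeR's quasi-likelihood test with Benjamini-Hochberg adjustment. In MV_PEEP against CON it was 2.71 ± 0.55, with an unadjusted p of 0.000601 and an adjusted p of 0.32 by the same test. These comparisons share the CON libraries. Over the 6 ventilated libraries it was 2.51, with a 95% interval of 1.38 to 3.65 and an adjusted p of 0.167 by edgeR. The exact 2-sided permutation test of mean FPKM gave p = 0.0238, the smallest that 6 against 3 libraries allow, and p = 0.1 for MV and for MV_PEEP, the smallest that 3 against 3 allow. Without MV replicate 1 and MV_PEEP replicate 3 the value over the ventilated libraries was 2.41, and leaving out any single library gave 2.25 to 2.88. Of the tools run, DESeq2 alone placed ARNTL past the threshold, with an adjusted p of 0.00756 in MV, 0.00103 in MV_PEEP and 0.000184 over both.

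The partners of ARNTL overlapped CON. CLOCK, the usual partner and a histone acetyltransferase (chromosome 15, 93327064 to 93404475, plus strand), was at 2.94, 4.04 and 4.62 FPKM in CON, 3.02, 2.25 and 3.44 FPKM in MV, and 4.84, 2.14 and 3.14 FPKM in MV_PEEP. The groups overlapped, and MV_PEEP held both the highest and the lowest library. Over the ventilated libraries the log2 fold change was -0.47, with a 95% interval of -1.29 to 0.35 and an adjusted p of 0.877 by edgeR. NPAS2, which can stand in for CLOCK (chromosome 2, 91348050 to 91453949, minus strand), was at 0.149, 0.552 and 0.209 FPKM in CON, 1.48, 0.743 and 0.189 FPKM in MV, and 0.0321, 0.410 and 1.74 FPKM in MV_PEEP. It was a gene of few reads, from 4 counts in MV_PEEP replicate 1 to 229 in MV_PEEP replicate 3, and its ventilated libraries lay on both sides of CON. The log2 fold change of NPAS2 over the ventilated libraries was 1.02, with a 95% interval of -1.14 to 3.17 that holds the value of ARNTL, and it was 0.35 without MV_PEEP replicate 3.

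Within each library, the ratio of ARNTL to CLOCK in FPKM was 0.0921 to 0.223 in CON and 0.322 to 2.69 in the ventilated libraries. The ranges did not overlap, so that CLOCK, which exceeded ARNTL per unit length in all CON libraries, was exceeded by ARNTL in part of the ventilated libraries. The ratio of ARNTL to NR1D1, the receptor that represses it, was 0.0536 to 0.247 in CON and 0.182 to 1.14 in the ventilated libraries, and these ranges overlapped.

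**Figure D2:**
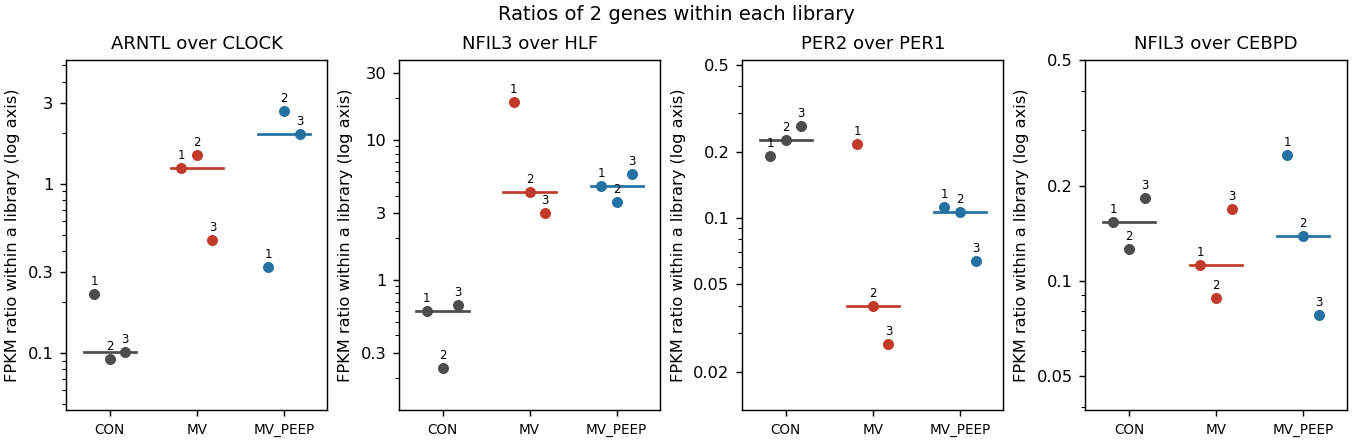
Ratio of the FPKM of 2 genes within a library (log axis), with 1 point for each of the 9 libraries and a line at the group median. The ratio of NFIL3 to HLF lies at 0.235 to 0.664 in CON and 3.00 to 18.7 in the ventilated libraries, and that of NFIL3 to CEBPD overlaps between them.

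The PER genes encode the proteins that bind CRY and carry it to the nucleus. PER1 (chromosome 19, 11095197 to 11109696, plus strand), which hormones and activity can also induce directly, was at 11.6, 22.7 and 16.9 FPKM in CON, 36.4, 22.6 and 3.93 FPKM in MV, and 14.6, 19.2 and 37.5 FPKM in MV_PEEP. The MV libraries lay on both sides of CON, and the 2 highest libraries were MV replicate 1 and MV_PEEP replicate 3, those whose cell type markers stood apart. Its log2 fold change over the ventilated libraries was 0.10, with a 95% interval of -0.98 to 1.19 and an adjusted p of 0.991 by edgeR, and it was -0.29 without both of these libraries. The part of these markers in the PER1 level was not tested.

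PER2 (an unplaced scaffold, 277434 to 310775, minus strand, low-quality model) had the widest range of the members, 75.0-fold from its lowest to its highest library. It was at 2.24, 5.19 and 4.44 FPKM in CON, 7.89, 0.905 and 0.105 FPKM in MV, and 1.65, 2.05 and 2.38 FPKM in MV_PEEP. MV replicate 1 was the highest of all libraries, and MV replicate 3 the lowest, with 18 counts against 276 to 515 in CON. On the TMM-scaled CPM scale, 5 of the 6 ventilated libraries, at 0.52 to 7.42 CPM, were below the CON range of 11.1 to 19.9 CPM, and MV replicate 1, at 28.2 CPM, was above it. The log2 fold change was -0.64 in MV and -1.28 in MV_PEEP, and -0.96 over both, with a 95% interval of -2.80 to 0.89 and an adjusted p of 0.902 by edgeR. Without MV replicate 1 it was -3.07 in MV (unadjusted p 0.00292, adjusted p 0.442 by edgeR) and -2.17 over both (unadjusted p 0.00275, adjusted p 0.319 by edgeR). Without MV replicate 1 and MV_PEEP replicate 3 the value over both groups was -2.13. Without MV replicate 3, the lowest library, PER2 was at -0.068 in MV and -0.67 over both groups. The value of PER2 in MV therefore depended on single libraries in both directions, and it missed the adjusted threshold in each case. In MV_PEEP against CON, leaving out single libraries gave -1.49 to -1.12.

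PER3, a further family member (chromosome 13, 142037451 to 142040664, minus strand, a partial and low-quality model), had 12 counts in MV_PEEP replicate 1, 2 counts in MV replicate 2 and none in the other 7 libraries. A count of 0 allows up to 3 counts, which is 0.0687 to 0.139 CPM at these depths, counting error only. PER3 was left out of the edgeR fit, and the exact 2-sided permutation test of its mean FPKM gave p = 0.833 over the ventilated libraries and p = 1 in the other comparisons. The ratio of PER2 to PER1 within a library was 0.193 to 0.263 in CON and 0.0268 to 0.217 in the ventilated libraries, and MV replicate 1 was the ventilated library within the CON range.

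The CRY genes encode the repressors that block the ARNTL and CLOCK pair. CRY1 (chromosome 4, 89377247 to 89471315, plus strand) was at 2.72, 4.87 and 4.73 FPKM in CON, 13.1, 9.11 and 4.99 FPKM in MV, and 9.08, 8.47 and 7.68 FPKM in MV_PEEP. All 6 ventilated libraries were above CON, although MV replicate 3 exceeded the highest CON library only slightly. On the TMM-scaled CPM scale the groups overlapped, since MV_PEEP replicate 3, at 13.2 CPM, was below CON replicate 3, at 13.6 CPM. The mean was 4.11 ± 1.20 FPKM in CON, 9.07 ± 4.06 FPKM in MV and 8.41 ± 0.702 FPKM in MV_PEEP (SD, n = 3 each).

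The log2 fold change of CRY1 was 1.01 ± 0.37 (SE) in MV against CON (unadjusted p 0.0208, adjusted p 0.591 by edgeR) and 0.76 ± 0.37 in MV_PEEP against CON (unadjusted p 0.066, adjusted p 0.832 by edgeR). In MV the value without MV replicate 1, the highest library, was 0.75 (unadjusted p 0.0869), and the unadjusted p also went to 0.0838 without CON replicate 1 and to 0.0551 without CON replicate 2. Over the ventilated libraries it was 0.88, with a 95% interval of 0.15 to 1.62 and an adjusted p of 0.565 by edgeR. Leaving out single libraries gave 0.73 to 1.05, and the unadjusted p went to 0.0994 without CON replicate 1 and to 0.0623 without CON replicate 2.

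CRY2 (chromosome 1, 185198872 to 185230124, plus strand) overlaps an uncharacterized gene on the opposite strand, and whether the counting used strand is not given in the sources used here, so that reads from that gene cannot be told apart from its own. It was at 9.26, 8.98 and 7.62 FPKM in CON, 13.4, 10.5 and 10.7 FPKM in MV, and 10.7, 6.28 and 17.1 FPKM in MV_PEEP. The MV libraries were all above CON in FPKM, as 10.3% of all genes were in that comparison, and overlapped CON on the TMM-scaled CPM scale. MV_PEEP held both the lowest and the highest library. For the ventilated libraries the log2 fold change was 0.15, with a 95% interval of -0.50 to 0.81 and an adjusted p of 0.97 by edgeR. The ratio of CRY1 to CRY2 was 0.294 to 0.621 in CON and 0.450 to 1.35 in the ventilated libraries.

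NR1D1 encodes REV-ERB alpha, the haem-binding nuclear receptor that represses ARNTL and NFIL3 (chromosome 19, 41291446 to 41298795, minus strand). Its levels were 5.84, 6.94 and 1.898 FPKM in CON, 3.26, 18.2 and 2.23 FPKM in MV, and 3.37, 5.35 and 12.6 FPKM in MV_PEEP. MV replicate 2 was the highest and MV_PEEP replicate 3 the next, and the other ventilated libraries lay within the CON range. Against CON, the ventilated libraries had a log2 fold change of 0.32, with a 95% interval of -1.13 to 1.77 and an adjusted p of 0.974 by edgeR, and it turned to -0.40 without MV replicate 2.

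NFIL3 (also called E4BP4) encodes a basic leucine zipper repressor that also serves in immune cells (chromosome 1, 76764577 to 76777807, plus strand). Its levels were 2.59, 2.12 and 3.17 FPKM in CON, 56.6, 9.22 and 6.94 FPKM in MV, and 12.2, 15.6 and 18.9 FPKM in MV_PEEP. Every ventilated library was at least double the highest CON library, and MV replicate 1 was far above the rest. On the TMM-scaled CPM scale the range was 5.40 to 9.89 CPM in CON, 23.5 to 140.1 CPM in MV and 34.9 to 39.1 CPM in MV_PEEP, with no overlap. The mean was 2.62 ± 0.525 FPKM in CON, 24.2 ± 28.0 FPKM in MV and 15.6 ± 3.36 FPKM in MV_PEEP (SD, n = 3 each).

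The log2 fold change of NFIL3 was 2.96 ± 0.68 (SE) in MV against CON, with an unadjusted p of 0.00143 and an adjusted p of 0.319 by edgeR. In MV_PEEP against CON it was 2.18 ± 0.66, with an unadjusted p of 0.00802 and an adjusted p of 0.654 by edgeR. Over the ventilated libraries it was 2.57, with a 95% interval of 1.17 to 3.97, an adjusted p of 0.284 by edgeR and an exact 2-sided permutation p of 0.0238. MV replicate 1 also held the highest summed neutrophil markers, and without it the value was 1.57 in MV and 1.87 over both groups (unadjusted p 0.000149, adjusted p 0.176 by edgeR). Without MV replicate 1 and MV_PEEP replicate 3 the value over both groups was 1.899, so that NFIL3 remained higher in each of the 4 other ventilated libraries. Neutrophil markers were also higher in every ventilated library, at 30.5 to 1067 FPKM in MV and 152.1 to 285.9 FPKM in MV_PEEP against 2.96 to 19.1 FPKM in CON, and their part in the NFIL3 level was not tested. DESeq2 placed NFIL3 past the threshold in MV (adjusted p 0.00143) and over both groups (adjusted p 0.000984).

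**Figure D3:**
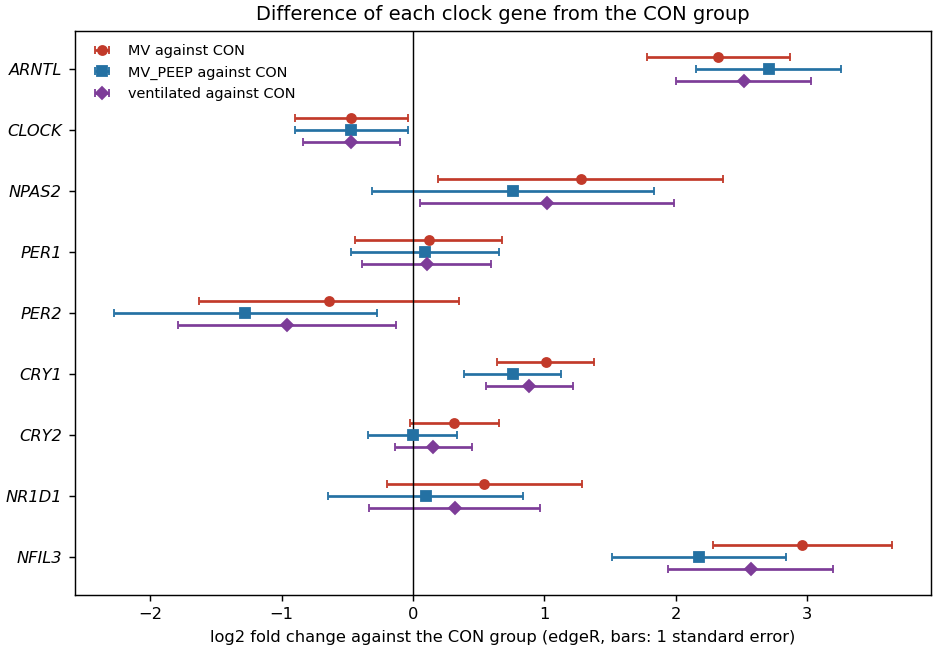
Log2 fold change of each tested clock gene against CON by edgeR, for MV, for MV_PEEP and for both ventilated groups, with bars of 1 standard error. ARNTL and NFIL3 lie at 2.18 to 2.96 in all 3 comparisons, and PER2 lies at -1.28 to -0.64 with bars that are among the longest.

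The comparison of MV_PEEP against MV asks whether the PEEP level was accompanied by a difference within the ventilated animals. None of the 9 members passed an unadjusted p of 0.05 by edgeR, with 0 higher and 0 lower, where 2.26% of all genes were higher and 1.26% lower. The log2 fold changes ran from -0.78 for NFIL3 to 0.38 for ARNTL. The value of PER2 without MV replicate 1 turned from -0.64 to 1.79 (unadjusted p 0.0332, adjusted p 0.87 by edgeR) and that of NFIL3 to 0.61 (unadjusted p 0.113). Without MV_PEEP replicate 3 as well, PER2 was at 1.86 (unadjusted p 0.0417). The 95% interval was -0.76 to 1.52 for ARNTL, -1.06 to 0.56 for CRY1 and -2.19 to 0.63 for NFIL3, and each of these intervals reached past a 2-fold difference in 1 direction only. No member had MV_PEEP and MV apart on either scale, where 4.86% of all genes were higher and 1.53% lower in FPKM, and 3.04% and 2.9% in TMM-scaled CPM.

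Against CON alone, MV had 3 of 9 members higher (ARNTL, NFIL3 and CRY1) and 0 lower by the unadjusted p of edgeR, where 3.77% and 3.19% of all genes were. All MV libraries were above CON in FPKM for ARNTL, NFIL3, CRY1 and CRY2, 4 of 9 members with 0 below, where 10.3% and 4.91% of all genes were. In TMM-scaled CPM this held for 3 of 9, CRY2 being lost, with 0 below, where 6.95% and 7.72% of all genes were. MV_PEEP had 2 of 9 members higher (ARNTL and NFIL3) and 0 lower by the unadjusted p of edgeR, where 3.23% and 3.02% of all genes were. In FPKM 3 of 9 members (ARNTL, NFIL3 and CRY1) were above CON in all MV_PEEP libraries and 0 below, where 14.2% and 2.58% of all genes were. In TMM-scaled CPM 2 of 9 were above and PER2 was below, where 6.27% and 6.09% of all genes were.

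The members differed in how tightly they were held within a group. The pooled within-group SD of log2 CPM was 0.38 for CRY2, 0.42 for CRY1, 0.55 for CLOCK and 0.67 for ARNTL, and its median over all genes tested was 0.62. NFIL3 and PER1 were wider, at 0.89 and 0.88, NR1D1 stood at 1.09, and NPAS2 and PER2 were widest, at 1.54 and 1.65. For PER2 and NFIL3 the spread lay in MV, at 2.81 and 1.47, against 0.11 and 0.09 in MV_PEEP. In FPKM, MV_PEEP replicate 3 was the highest library for 4 members, ARNTL, NPAS2, PER1 and CRY2, and MV replicate 1 for 3, PER2, CRY1 and NFIL3. In TMM-scaled CPM, MV_PEEP replicate 3 was the highest for none of them, and ARNTL was highest in MV_PEEP replicate 2, at 15.2 CPM.

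In the table as a whole, the genes most like ARNTL over the 9 libraries, by Pearson's r of log2(FPKM + 1) over 11522 genes, were LOC108176879 (r = 0.957), CACHD1 (0.955), BUD13 (0.954), PIGN (0.954) and SET (0.951). CACHD1 was at 1.09 to 1.57 FPKM in CON and 2.05 to 6.14 FPKM in the ventilated libraries, and SET at 29.9 to 33.3 and 33.5 to 69.1 FPKM. The genes most like NR1D1 were BRCC3 (r = 0.950), KIF3C (0.938), STRADA (0.926), MICALL1 (0.925) and SAP30 (0.915). These are descriptions over 9 libraries that share group and depth.

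Of the partners of NFIL3 in the D-box and auxiliary loops, 5 were tested, and 0 were higher and 2 lower in the ventilated libraries at an unadjusted p under 0.05 by edgeR, where 3.6% and 3.84% of all genes were, with a median log2 fold change of -0.40. HLF, an activator at D-box elements, was at 4.31, 9.04 and 4.77 FPKM in CON, 3.03, 2.17 and 2.32 FPKM in MV, and 2.61, 4.32 and 3.29 FPKM in MV_PEEP. Only MV_PEEP replicate 2 reached into the CON range, and on the TMM-scaled CPM scale all 6 ventilated libraries were below CON. Its log2 fold change was -1.21 ± 0.29 (SE), with an unadjusted p of 0.00208 and an adjusted p of 0.284 by edgeR. TEF, a related activator, had a log2 fold change of -0.77 ± 0.30, with an unadjusted p of 0.0279 and an adjusted p of 0.596 by edgeR, and the unadjusted p was 0.0503 without MV replicate 1 and MV_PEEP replicate 3. The ratio of NFIL3 to TEF was 0.104 to 0.235 in CON and 0.718 to 4.75 in the ventilated libraries. DBP, the activator that completes this family, was looked for by its symbol but not found, and so was not analysed. In FPKM, 1 of the 5 had all ventilated libraries above CON, where 5.99% of all genes did. It was RORA, a ROR receptor, at 0.537 to 0.660 FPKM in CON and 0.779 to 1.27 FPKM in the ventilated libraries. In TMM-scaled CPM, RORA overlapped CON.

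Genes that act on the clock proteins were read through a list of kinases and turnover factors and a list of cofactors. Among 11 kinases and turnover factors and 9 cofactors tested, 0 were higher and 0 lower in the ventilated libraries at an unadjusted p under 0.05 by edgeR, where 3.6% and 3.84% of all genes were, with medians of -0.02 and 0.07. For lists of this size, 0 is near those shares. In FPKM, 1 of the 11 and 0 of the 9 had all ventilated libraries above CON, where 5.99% of all genes did. It was CSNK2B, at 150.8 to 184.2 FPKM in CON and 190.0 to 235.3 FPKM in the ventilated libraries, and it overlapped CON in TMM-scaled CPM. In MV_PEEP against CON, 3 of the 11 and 2 of the 9 were above in FPKM, where 14.2% of all genes were. CSNK2A1, a catalytic subunit of casein kinase 2, had a log2 fold change of 0.49 and GSK3B, a kinase of several clock proteins, one of -0.71. NCOR1, the corepressor that NR1D1 recruits, was at 0.49, and KAT2B, an acetyltransferase, at 0.45. Of 5 other regulators tested, none passed in the ventilated libraries, and TIMELESS passed in MV_PEEP against CON with 1.76 ± 0.70 (unadjusted p 0.0312, adjusted p 0.752 by edgeR), where MV_PEEP replicate 3 was at 3.46 FPKM and the other 8 libraries at 0.210 to 0.818 FPKM. Without that library the value of TIMELESS was 0.56 (unadjusted p 0.344 by edgeR). BHLHE40, a repressor of clock targets, had a log2 fold change of -0.76 over the ventilated libraries.

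Clock-controlled outputs of muscle were mixed, with 1 higher and 3 lower of 10 tested in the ventilated libraries, where 3.6% and 3.84% of all genes were, and a median of -0.03. PDK4, which restrains pyruvate oxidation, was at 11.7 to 36.9 FPKM in CON and 79.8 to 830.0 FPKM in the ventilated libraries, with a log2 fold change of 4.03 ± 0.78 and an adjusted p of 0.145 by edgeR. SLC2A4, the insulin-responsive glucose transporter, was below CON in all 6 ventilated libraries, with a log2 fold change of -1.30 ± 0.33 and an adjusted p of 0.312 by edgeR. TCAP, a sarcomere Z-disc protein, and WEE1, a cell cycle kinase, had log2 fold changes of -1.22 and -1.11. WEE1 was at -1.01 (unadjusted p 0.0542 by edgeR) without MV_PEEP replicate 3, and at -1.22 (unadjusted p 0.0246) without MV replicate 1 as well. NOCT, a phosphatase with a daily rhythm in mice, passed in MV_PEEP against CON, at 0.84 (unadjusted p 0.0434, adjusted p 0.798 by edgeR), and was at 0.68 (unadjusted p 0.08) without MV replicate 1 and MV_PEEP replicate 3.

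Genes that respond to hormones, cytokines and activity, inputs known to act on PER1 and NFIL3, were read through 3 further lists. Glucocorticoid response genes had 3 higher and 0 lower of 9 tested, where 3.6% and 3.84% of all genes were, with a median log2 fold change of 0.19. FKBP5, a chaperone partner of steroid receptors, was at 1.60, DDIT4, an inhibitor of mTOR signalling, at 2.46 and CEBPD, a transcription factor, at 2.97, whereas TSC22D3, a classical glucocorticoid target, stayed within 74.6 to 101.0 FPKM in all 9 libraries. FKBP5 and DDIT4 overlapped CON, with MV replicate 3 at 24.2 and 12.5 FPKM and CON reaching 31.2 and 23.7 FPKM. Without MV replicate 1, FKBP5 was at 1.13 over both groups (unadjusted p 0.0419 by edgeR) and 1.08 in MV (unadjusted p 0.0847). CEBPD was at 16.8, 16.8 and 17.3 FPKM in CON, 505, 105 and 41.2 FPKM in MV, and 48.8, 113 and 243 FPKM in MV_PEEP, above CON in every ventilated library. The ratio of NFIL3 to CEBPD was 0.126 to 0.183 in CON and 0.0780 to 0.250 in the ventilated libraries.

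Cytokine and STAT3 response genes had 3 higher and 0 lower of 7 tested, where 3.6% and 3.84% of all genes were, with a median of 1.14. STAT3, SOCS3 and IL4R had log2 fold changes of 1.25, 2.81 and 1.33, and SOCS3, the feedback inhibitor of STAT3 signalling, was highest in MV replicate 1, at 148 FPKM. With MV replicate 1 and MV_PEEP replicate 3 left out, STAT3 was at 0.89 (unadjusted p 0.0133 by edgeR), SOCS3 at 1.35 (unadjusted p 0.113) and IL4R, whose highest library was MV_PEEP replicate 3, at 0.70 (unadjusted p 0.0956), so that 1 of these 3 passed. Immediate response genes had 1 higher and 0 lower of 8 tested, where 3.6% and 3.84% of all genes were, with a median of 1.16. NR4A2, an orphan nuclear receptor, passed over the ventilated libraries at 2.42 ± 0.86 (unadjusted p 0.0185, adjusted p 0.541 by edgeR), and at 1.63 (unadjusted p 0.0235) without the same 2 libraries. In MV against CON, NR4A2 was at 2.39 (unadjusted p 0.027 by edgeR), and at 0.59 (unadjusted p 0.402) without MV replicate 1. In MV_PEEP against CON it was at 2.45 (unadjusted p 0.0243 by edgeR). EGR1, a zinc finger factor, was higher in MV_PEEP than in MV by 2.78 ± 0.79 on the log2 scale (unadjusted p 0.00524, adjusted p 0.985 by edgeR), and was highest in MV_PEEP replicate 2, at 95.9 FPKM. FOSB passed in MV_PEEP against CON at 3.80 and NR4A3 in MV against CON at 4.23, and each had a single high library, at 20.6 FPKM in MV_PEEP replicate 2 and 37.7 FPKM in MV replicate 1. The value of NR4A3 in MV without MV replicate 1 was -1.37 (unadjusted p 0.24 by edgeR). SGK1, a glucocorticoid-induced kinase, was higher in MV_PEEP than in MV by 1.29 (unadjusted p 0.00872, adjusted p 0.985 by edgeR).

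**Figure D4:**
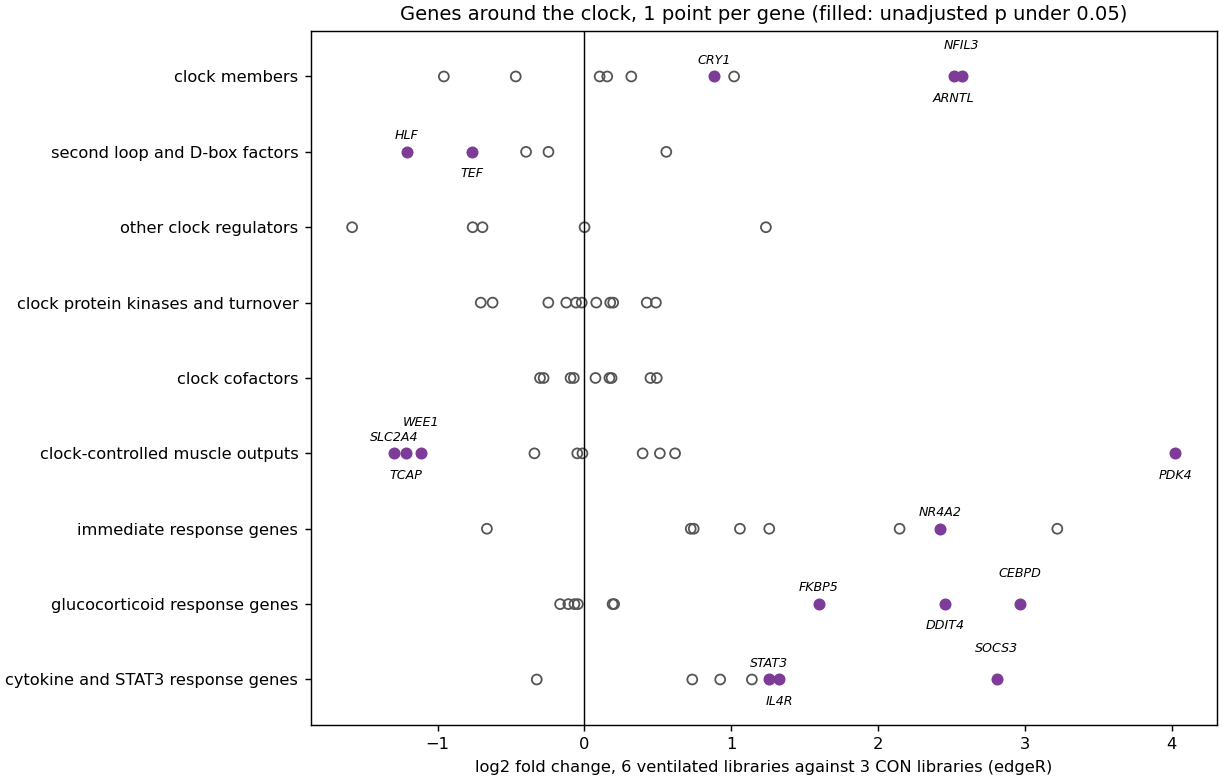
Log2 fold change of the 6 ventilated libraries against the 3 CON libraries by edgeR, with 1 point for each gene of the clock members and of the lists around the clock, filled where the unadjusted p is under 0.05. Filled points include ARNTL, NFIL3 and CRY1 among the members, HLF and TEF on the lower side among the D-box factors, and PDK4, at 4.03, on the far right.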

How the data were processed

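Diaphragm RNA of 9 libraries (poly(A)-selected, dUTP) was sequenced by the authors and, per the submitters' processing notes, handled with cutadapt 1.9, HISAT2 2.0.4 and StringTie 1.3.4d on OryCun 2.0. The deposited table holds FPKM values and a read count per gene and library. The program that made the deposited counts is not given in the sources used here, and 54.3% of counts from 1 to 12 were 4, 8 or 12, so that a fit on counts divided by 4 was added to the alternatives. The members and lists were chosen with earlier results of these data known. Groups were taken from the labels.

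Genes whose FPKM averaged at least 0.5 over the 9 libraries had their counts tested with edgeR 4.0.16 (R 4.3.3): TMM scaling, 1 mean per group over all 9 libraries, quasi-likelihood F test, Benjamini-Hochberg adjustment over all 12981 genes. The mean of MV and MV_PEEP minus CON was the contrast called ventilated against CON. Intervals are at 95%. Single members were also compared by an exact 2-sided permutation test of mean FPKM (scipy 1.17.1). The pathway genes named are those with an unadjusted p under 0.05 in any comparison, or the 2 with the smallest p of a list where fewer passed. TSC22D3, CSNK2B and RORA are named outside this rule, by their levels. Genes like ARNTL and NR1D1 averaged at least 1 FPKM. Coordinates come from the RefSeq annotation of OryCun 2.0, in which 20171 gene IDs were matched. Alternatives were other scalings and filters, limma 3.58.1 on log2(FPKM + 1) and log2(FPKM + 0.1), DESeq2 1.42.0, a replicate block, only the groups compared, and each library left out. Scripts were tested on simulated data.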

Additional observations from a re-analysis of the deposited data

How the results depend on the processing

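With 3 libraries a group, the intervals of NPAS2, PER2 and NR1D1 were the widest among the members (over both ventilated groups, -1.14 to 3.17, -2.80 to 0.89 and -1.13 to 1.77), and the low counts of ARNTL in CON, NPAS2 and PER3 limited precision. Of the members' values under the alternatives, 715 kept direction and side of the threshold, 63 changed direction, and 5 passed the threshold, all by DESeq2. The cause was not tested. The libraries left out together were chosen after seeing the data.

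The number of genes with an adjusted p under 0.05 was 0 in each comparison by edgeR (unadjusted p under 0.05: 490 higher and 414 lower in MV, 419 and 392 in MV_PEEP, 293 and 164 in MV_PEEP against MV, 467 and 498 in both ventilated groups). By DESeq2 it was 154, 98, 15 and 203, by limma with a pseudocount of 1 it was 2, 2, 1 and 5, and with 0.1 it was 2, 2, 0 and 5. For both ventilated groups it was 3 without a filter and 2 without MV replicate 1 and MV_PEEP replicate 3. With single libraries left out it was 0 in MV and 0 to 1 in the other comparisons, with 1 in MV_PEEP without CON replicate 3, in MV_PEEP against MV without MV replicate 1, and in both groups without CON replicate 2, CON replicate 3 or MV replicate 3. Scaling by library totals alone moved the median log2 fold change of all genes from 0.02 to 0.13 in MV, 0.06 to 0.42 in MV_PEEP, -0.00 to 0.25 in MV_PEEP against MV and 0.04 to 0.27 in both, and gave 733 higher and 245 lower, 1060 and 187, 439 and 78, and 977 and 263 at an unadjusted p under 0.05.

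Same-numbered libraries correlated at -0.28 to 0.36 and only 2 of 9 correlated best with a library of the same number. They were treated as unpaired. The replicate block gave 0 genes in each comparison (unadjusted: 370 higher and 353 lower, 290 and 341, 153 and 105, 346 and 432). In MV_PEEP against MV the replicate block gave -0.024 for CLOCK, 0.10 for PER1, 0.17 for PER2 and 0.060 for NR1D1, each opposite in sign to the reported value.

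Other changes of sign, none of a called value, were as follows. PER1 in MV was -0.10 and -0.15 by limma (pseudocounts 1 and 0.1) and -0.10 on log2(FPKM + 1). CRY2 in MV_PEEP, reported as -0.00, was 0.0126 with RLE size factors, 0.00926 with filterByExpr, 0.0127 by DESeq2, 0.0168 without a filter, 0.40 with library totals, and 0.27 and 0.28 by limma. In MV_PEEP against MV, CLOCK was -0.0106 with filterByExpr and -0.000722 with the newer quasi-likelihood form. PER1 there was 0.18 with library totals, 0.49 and 0.56 by limma and 0.000471 with only the groups compared. PER2 was 0.18 and 0.83 by limma, and 0.18 on log2(FPKM + 1). NR1D1 was 0.17 and 0.25 by limma, and 0.17 on log2(FPKM + 1). Without MV replicate 1 and MV_PEEP replicate 3, PER1 was -0.46 in MV, -0.13 in MV_PEEP, 0.33 in MV_PEEP against MV and -0.29 in both. With the same libraries left out, NPAS2 was -0.58 and NR1D1 -0.31 in MV_PEEP, and PER2, CRY1 and NFIL3 were 1.86, 0.24 and 0.67 in MV_PEEP against MV. NR1D1 was -1.24 in MV_PEEP against MV without these libraries, and it kept the sign of its reported value, -0.45.

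With single libraries left out, PER1 ranged from -0.46 to 0.58 and NR1D1 from -0.89 to 0.94 in MV. In MV_PEEP, NPAS2 ranged from -0.58 to 1.32, PER1 from -0.13 to 0.24, CRY2 from -0.14 to 0.26 and NR1D1 from -0.31 to 0.41. In MV_PEEP against MV, CLOCK ranged from -0.57 to 0.32, NPAS2 from -1.86 to 0.16, PER1 from -0.48 to 0.55, PER2 from -1.20 to 1.79, CRY1 from -0.46 to 0.01, NR1D1 from -0.85 to 0.99 and NFIL3 from -1.17 to 0.61. Over both ventilated groups, PER1 ranged from -0.19 to 0.34 and NR1D1 from -0.40 to 0.62.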
